A study of Homo sapiens with 15 samples.

Results

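IGHM, FAM30A, PERCC1, CCDC154, C1orf127, MAB21L4, FLI1 and GRAP2 are 8 genes that lost most of their RNA in NCI-H69 cells after FB23-2. They were chosen by their measured log2 fold change with FB23-2 against DMSO, as large losses that include 2 pairs of neighbours, and make up 8 of 62754 gene IDs counted and 8 of 19781 tested. All 8 passed the filter on low counts. The libraries were of messenger RNA from NCI-H69, an established cell line of the classic, neuroendocrine type of small cell lung carcinoma. The cells had received FB23-2 (3 libraries), CS2 (3 libraries) or the solvent DMSO (3 libraries). The series names both compounds as inhibitors of FTO, an RNA demethylase that removes the m6A mark. As background, the name CS2 has been used in FTO work for brequinar, a drug first known for blocking pyrimidine synthesis. The sources used here state no dose or duration, and all groups come from a single line, with no engineered genotype in the labels. Libraries of a second line, H82, are in the labels but were not analysed here.

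The losses with FB23-2 chose these genes, so their size in that comparison is a description and carries no test. Among named genes with at least 10 CPM (read counts scaled to library size, with TMM factors) with DMSO, leaving out clone-style and pseudogene names, 7 of the 8 took positions 1, 2 and 4 to 8 in the order of loss. MUC5AC, at -5.32 on the log2 scale and position 3, is not one of them. The last inside was FLI1, at a log2 fold change of -3.66, and the next outside was EHF, at -3.50. GRAP2 does not match the word silenced as closely as the others, since it kept 28.2% of its DMSO level and took position 713 in the order of loss over all genes tested. In that wider order the other 7 stood between positions 20 (IGHM) and 92 (FLI1). With 9.93 CPM in DMSO, GRAP2 was just under the limit of 10 CPM and so has no position in the shorter order.

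Total counts lay between 32352835 and 43957839 in the FB23-2 libraries, 29916267 and 33663742 in the CS2 libraries and 31404658 and 45022633 in the DMSO libraries. The floor used here, 3 reads, was worth 0.0666 to 0.1 CPM by library. Replicate 2 of FB23-2 stood apart, with 10.97% of counts from the mitochondrial genome against 6.83% and 6.91% in the others of that group, 7.3% to 9.05% with CS2 and 5.18% to 5.69% with DMSO. It was the lowest FB23-2 library for 6 of the 8 genes (all but PERCC1 and FLI1), and the part of this in their losses was not tested; values without it follow where they differ most. All 11 neuroendocrine markers (among them INSM1, CHGA and SYP) were measured, and their summed level lay between 2810 and 3140 CPM with FB23-2, 3290 and 3410 CPM with CS2 and 3430 and 3660 CPM with DMSO. In bulk RNA of this kind, less RNA in each cell and fewer cells with RNA of a gene cannot be told apart.

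The 8 genes have unrelated textbook roles. IGHM encodes the constant region of the immunoglobulin mu heavy chain, which B cells join to a variable domain by recombining V, D and J segments, and which is also transcribed from unrearranged loci as a sterile transcript. FLI1 is an ETS transcription factor of blood and endothelial cells, best known from its fusion with EWSR1 in Ewing sarcoma. GRAP2 (also called GADS) is an adaptor that links LAT to SLP-76 below the T cell receptor. PERCC1 is needed for enteroendocrine cells of the gut, and its loss causes congenital diarrhoea. C1orf127, now named CIROZ, takes part in setting the left-right body axis. MAB21L4 belongs to the MAB21 family and is known from squamous differentiation, CCDC154 is a coiled-coil protein whose loss causes osteopetrosis in mice, and FAM30A is a long non-coding RNA of the heavy chain locus.

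The genes lie on 6 chromosomes (coordinates from GENCODE release 29 on GRCh38). IGHM occupies chr14:105851705-105856218 on the minus strand, and FAM30A occupies chr14:105917979-105932642 on the plus strand, 61.8 kb away. PERCC1 (chr16:1431035-1433397, plus strand) and CCDC154 (chr16:1434383-1444556, minus strand) point towards each other with a gap of 1.0 kb. C1orf127 lies at chr1:10946471-10982037, MAB21L4 at chr2:240886048-240896889, FLI1 at chr11:128686535-128813267 and GRAP2 at chr22:39901082-39973721. A TEC locus (an annotation class for transcripts that still await experimental proof) named AL032819.2 covers 23.6% of the exon bases of CCDC154 on the opposite strand, so part of the CCDC154 counts is uncertain where the strand setting is not given. SENCR and AP001122.1, antisense to FLI1, each cover 2% of its exon bases, and the other 6 genes share no exon base with another gene. Of the 50-base windows of CCDC154 transcripts 14% occur in another gene, against 2.9% for FLI1 and at most 0.4% for the others.

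Promoter windows of 300 bases (250 before and 50 after a RefSeq start, build GRCh38.p14) were found for 6 of the 8 genes, in 8 windows. IGHM and FLI1 had no entry in that table. The windows shown are those of the neighbours PERCC1 and CCDC154, which move together, of FAM30A, which pairs with IGHM, and of GRAP2, which moves apart from them with CS2. Both GRAP2 windows lie inside the gene span given above, so neither covers the start of that span. Capitals mark CAGCTG (an E-box, the kind of site bound by bHLH factors) and the element TATAAA found upstream of some starts, both searched on either strand. An ETS core, CCGGAA, was searched as well and occurred in none of the 8 windows.
PERCC1, chr16:1430828-1431127, plus strand: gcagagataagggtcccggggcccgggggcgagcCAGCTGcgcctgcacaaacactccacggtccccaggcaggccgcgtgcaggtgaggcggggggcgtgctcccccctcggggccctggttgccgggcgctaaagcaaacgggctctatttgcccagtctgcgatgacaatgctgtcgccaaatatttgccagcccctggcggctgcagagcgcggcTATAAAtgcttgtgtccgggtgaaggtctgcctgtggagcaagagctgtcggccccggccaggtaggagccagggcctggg
CCDC154, chr16:1444507-1444806, minus strand: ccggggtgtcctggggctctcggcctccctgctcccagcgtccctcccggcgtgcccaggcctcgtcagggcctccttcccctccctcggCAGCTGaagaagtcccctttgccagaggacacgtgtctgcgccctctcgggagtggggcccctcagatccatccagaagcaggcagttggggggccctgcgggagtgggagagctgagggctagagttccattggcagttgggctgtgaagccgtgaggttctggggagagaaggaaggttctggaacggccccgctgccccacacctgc
FAM30A, chr14:105917729-105918028, plus strand: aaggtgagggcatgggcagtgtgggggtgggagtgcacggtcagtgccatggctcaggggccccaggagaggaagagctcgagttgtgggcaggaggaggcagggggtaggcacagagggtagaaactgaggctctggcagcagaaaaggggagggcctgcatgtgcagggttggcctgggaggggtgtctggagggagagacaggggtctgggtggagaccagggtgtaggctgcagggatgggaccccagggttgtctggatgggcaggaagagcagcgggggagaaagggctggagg
GRAP2, chr22:39946567-39946866, plus strand: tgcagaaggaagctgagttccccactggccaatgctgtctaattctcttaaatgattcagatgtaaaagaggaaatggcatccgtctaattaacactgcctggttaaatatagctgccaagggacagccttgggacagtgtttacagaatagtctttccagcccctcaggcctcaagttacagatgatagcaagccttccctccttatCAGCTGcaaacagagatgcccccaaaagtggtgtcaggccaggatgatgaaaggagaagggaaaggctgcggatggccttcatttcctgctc
CAGCTG stands once in the windows of PERCC1 and CCDC154 and in the GRAP2 window shown, and 17.9% of all 35116 windows hold it. TATAAA stands once, in the PERCC1 window, against 11.5% of all windows, and CCGGAA is in 17.2% of all windows. The motifs do not overlap each other in these windows. The PERCC1 window has 21 CpG and that of CCDC154 has 14, against a median of 14 over all windows. FAM30A has 3 and the GRAP2 window shown has 2, both under the lower quartile of 4. The other GRAP2 window (chr22:39926354-39926653, plus strand), not printed, has 6 CpG and no CAGCTG. These matches describe letters in 300 bases and say nothing of binding.

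With DMSO, where all 8 genes were well above the count floor, their levels per length of annotated exon spread over more than an order of magnitude. IGHM had 28.8 ± 1.2 CPM per kb of exon (SD, n = 3), PERCC1 19.0 ± 1.3, FAM30A 8.79 ± 0.34, CCDC154 7.34 ± 0.67, C1orf127 5.43 ± 0.23, MAB21L4 4.34 ± 0.44, FLI1 1.86 ± 0.12 and GRAP2 1.6 ± 0.12. No pair next to each other in this order overlapped between libraries. With FB23-2 the same quantity ran only from 0.146 ± 0.02 for FLI1 to 0.631 ± 0.084 for IGHM, and every pair next to each other in the order overlapped. With CS2 the order was another one: PERCC1 was highest at 8.69 ± 1.5, with C1orf127 (7.57 ± 0.13) and IGHM (6.65 ± 1.5) next and overlapping, and FLI1 lowest at 0.674 ± 0.075. The length is that of all annotated exons of a gene, which may be longer than the transcript made in these cells.

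With FB23-2 every gene fell below both other groups, while with CS2 6 genes lay between FB23-2 and DMSO and 2 lay above DMSO. All 8 passed the test of CS2 against DMSO, 6 lower and 2 higher, where 49.7% of all genes tested passed, 25.3% lower and 24.3% higher. That comparison shares its DMSO libraries with the one that chose the genes, so it is not independent of the choice. The median log2 fold change of the 8 genes was -3.74 with FB23-2 and -1.38 with CS2, beside 0.00 in both comparisons over all genes tested. With FB23-2 26.7% of all genes were called lower, from which nothing is read here because that comparison chose the 8. The libraries of CS2 and DMSO did not overlap for any of the 8 genes, as for 60.6% of all genes tested. Those of FB23-2 lay below DMSO for all 8, where 30.3% of all genes did, and below CS2 for all 8, where 31.6% did. Nothing is read from these FB23-2 counts either, because the choice of the 8 by their FB23-2 values largely fixed them in advance.

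**Figure D1:**
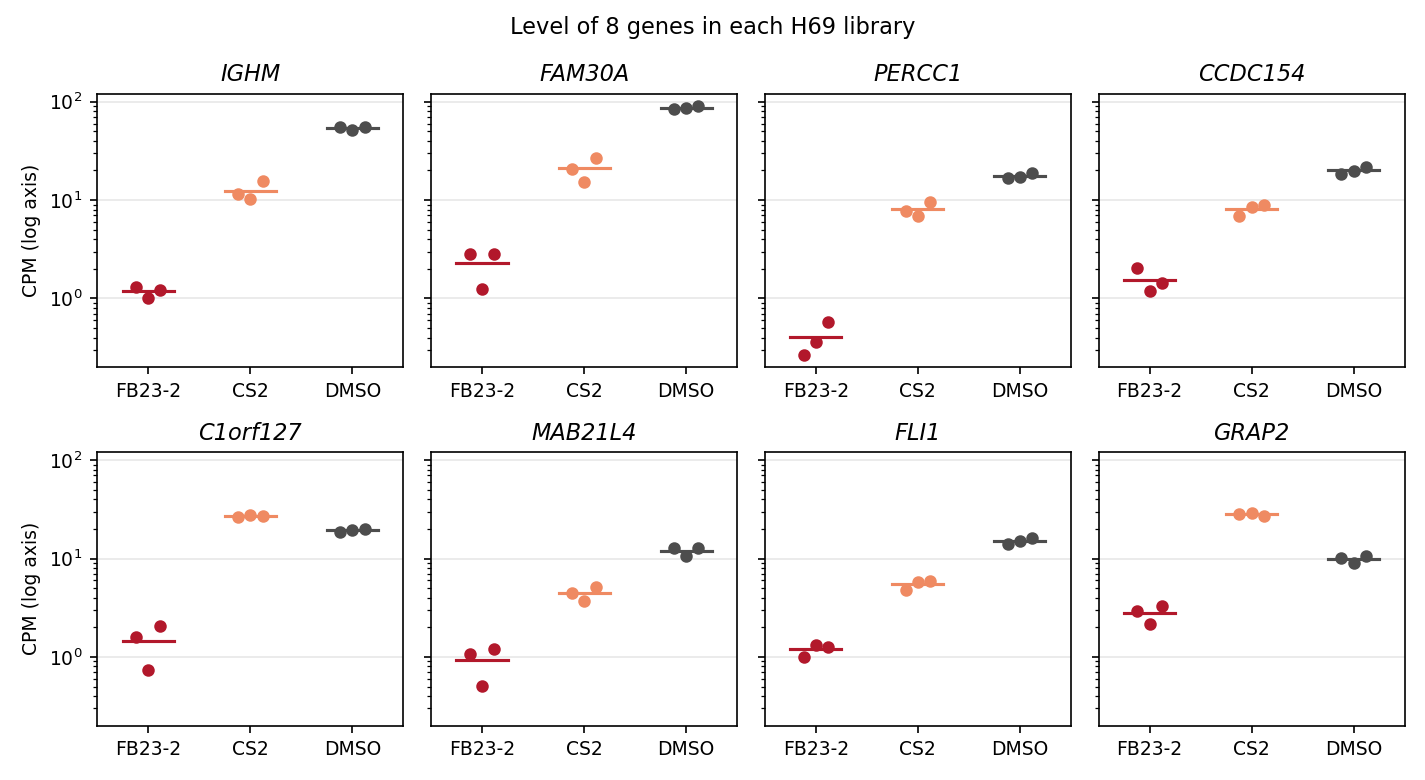
Level of each of the 8 genes in CPM (log axis) in the 3 libraries each of FB23-2, CS2 and DMSO; points are libraries and lines are means. The FB23-2 points lie lowest in all panels, and the CS2 points lie between the other groups except for C1orf127 and GRAP2, where they lie above DMSO.

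The heavy chain pair had the most reads of the 8 genes with DMSO and kept under 3% of its DMSO level with FB23-2. IGHM had 1.31, 1.01 and 1.22 CPM in the FB23-2 libraries, 11.4, 10.2 and 15.7 CPM in the CS2 libraries and 55.3, 51.2 and 55.0 CPM in the DMSO libraries. No group overlapped another, and the FB23-2 level was 2.19% and the CS2 level 23.1% of the DMSO level. The log2 fold change was -5.52 ± 0.17 (SE) with FB23-2 and -2.11 ± 0.13 with CS2, where the adjusted p for CS2 was 1.21e-10 by edgeR's quasi-likelihood test. FAM30A, the RNA on the opposite strand, had 2.8, 1.25 and 2.86 CPM with FB23-2, 20.8, 15.3 and 27.0 CPM with CS2 and 83.9, 86.2 and 90.5 CPM with DMSO. Replicate 2 of FB23-2 was the lowest of all 9 libraries, and no group overlapped another. Its log2 fold change was -5.26 ± 0.29 with FB23-2 (-4.94 without that replicate) and -2.05 ± 0.23 with CS2 (edgeR adjusted p = 4.82e-05). What remained with CS2, 24.2% of DMSO, was close to the 23.1% of IGHM.

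Other heavy chain segments were looked at after these values were seen. The J and D segments had few reads, and these too were fewest with FB23-2. Over 6 J segments the libraries held 8 counts in all with FB23-2, 28 with CS2 and 259 with DMSO, and over 27 D segments 8, 54 and 206 counts. The 48 V segments in the table held 743 counts with FB23-2, 784 with CS2 and 958 with DMSO, or 6.85 ± 0.99, 8.41 ± 1.0 and 8.34 ± 0.24 CPM (SD, n = 3). Of 6 tested V segments, IGHV3-38 was lower with FB23-2 (log2 fold change -0.72, edgeR adjusted p = 0.0384) and the other 5 did not pass, among them IGHV4-34 at -0.18 (adjusted p = 0.434). V segments resemble one another, so reads may be placed on the wrong one. Among constant genes, IGHD, the delta chain, had 0.531 ± 0.24 CPM with FB23-2, 2.22 ± 0.1 CPM with CS2 and 7.83 ± 0.45 CPM with DMSO. IGHG3, a gamma chain, had 0.0613 ± 0.033 CPM with FB23-2, 0.245 ± 0.18 CPM with CS2 and 1.78 ± 0.19 CPM with DMSO. Reads of one long transcript could be counted under several of these segments.

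**Figure D2:**
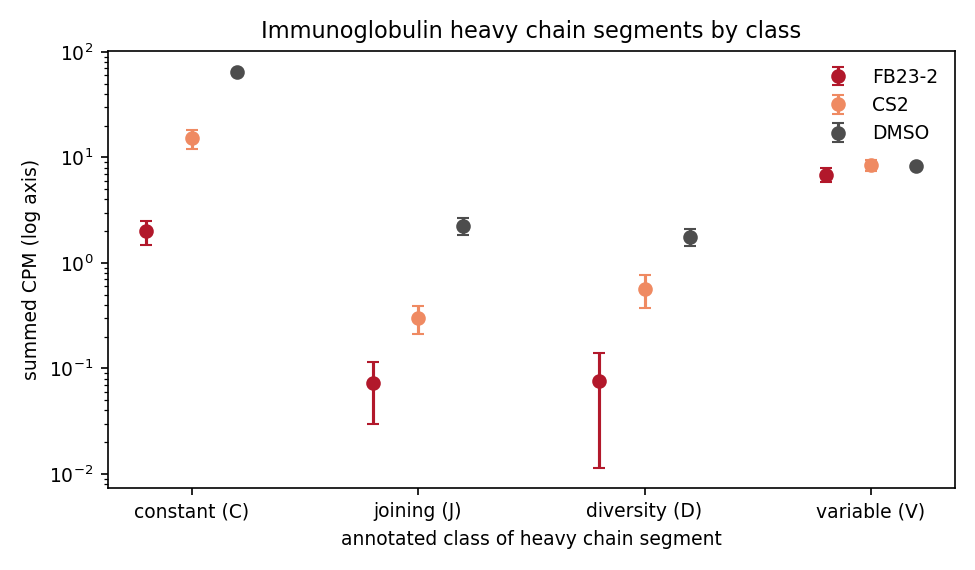
Summed CPM (log axis, mean ± SD of 3 libraries) of the annotated heavy chain segments of each class with FB23-2, CS2 and DMSO. Constant, joining and diversity segments are lowest with FB23-2 and highest with DMSO, while the variable segments lie between 6.85 and 8.41 CPM in all groups.

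Markers of B cells other than PAX5 were at or near 0 in all groups. CD79B had no count in any of the 9 libraries, CD22 had 2, MS4A1 had 37 and CD79A had 55 counts over all 9. PAX5, a B lineage factor, had a mean of 40.2 CPM with FB23-2, 47.7 CPM with CS2 and 47.6 CPM with DMSO, and the 6 B cell markers together, which PAX5 dominates, lay between 35.3 and 46.6, 46.7 and 48.7 and 46.4 and 50.4 CPM. Of 30 B lineage genes, 13 were tested, and with FB23-2 7 were called lower (26.7% of all genes) and 1 higher, with a median log2 fold change of -0.68. SPIB, an ETS factor of B cells, fell by 3.11 ± 0.32 on the log2 scale (edgeR adjusted p = 1.38e-07), and IGKC, the kappa light chain, fell by 2.64 ± 0.33 (adjusted p = 1.59e-06), both at under 2 CPM with DMSO. XBP1, a factor of secretory cells, rose by 0.82 ± 0.08 to 263 CPM against 149 CPM with DMSO (adjusted p = 6.97e-08). With CS2 4 of the 13 were lower, close to the 25.3% of all genes, and 1 higher, against 24.3% of all genes: EBF1, an early B cell factor, was lower at -2.09 ± 0.37 (adjusted p = 9.06e-05), PRDM1, the plasma cell factor Blimp-1, was higher at 1.04 ± 0.17 (adjusted p = 5.62e-05), and IGKC, at -0.31, did not pass. PRDM1 was lower with FB23-2 (-0.79 ± 0.19, adjusted p = 0.00159). EBF1, at only 1.46 CPM with DMSO, was lower with FB23-2 as well (-1.09 ± 0.33, adjusted p = 0.00834).

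PERCC1 and CCDC154 formed the second pair. PERCC1 had 0.268, 0.36 and 0.583 CPM in the FB23-2 libraries, or 9, 15 and 20 reads, 7.66, 6.88 and 9.58 CPM in the CS2 libraries and 16.7, 17.1 and 18.9 CPM in the DMSO libraries. Its FB23-2 level was 2.3% of the DMSO level, close to the share of IGHM, while its CS2 level was 45.7%. The log2 fold change of PERCC1 was -5.44 ± 0.21 with FB23-2 and -1.13 ± 0.15 with CS2 (edgeR adjusted p = 3.74e-06). CCDC154 had 2.03, 1.2 and 1.43 CPM with FB23-2, 6.84, 8.52 and 8.82 CPM with CS2 and 18.3, 19.8 and 21.9 CPM with DMSO. It kept 7.75% of its DMSO level with FB23-2 and 40.3% with CS2. The log2 fold change was -3.70 ± 0.17 with FB23-2 and -1.32 ± 0.15 with CS2 (adjusted p = 4.53e-07). AL032819.2, which overlaps CCDC154 exons, had 0.684 ± 0.32 CPM with FB23-2, 6.17 ± 1.1 CPM with CS2 and 17.4 ± 1.8 CPM with DMSO, so reads under the 2 names may be the same.

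PERCC1 belongs to gut enteroendocrine cells, hormone-secreting cells that share factors with neuroendocrine tumours. Of 26 enteroendocrine genes, 18 were tested, and with FB23-2 12 were lower (26.7% of all genes) and 3 higher, with a median log2 fold change of -0.98. PAX4, an endocrine homeobox factor, had 0.137 CPM with FB23-2, 4.38 CPM with CS2 and 3.75 CPM with DMSO (-4.74 ± 0.27 with FB23-2, edgeR adjusted p = 2.68e-11, and 0.22 ± 0.17 with CS2, adjusted p = 0.306). NEUROG3, the factor that starts the endocrine lineage, was lower with FB23-2 at -4.77 ± 0.74 (adjusted p = 2.05e-05) but had a mean of only 0.581 CPM with DMSO. LMX1A, a homeobox factor, rose by 5.14 ± 0.23 with FB23-2 to 15.8 CPM against 0.445 CPM with DMSO (adjusted p = 1.33e-12). It rose with CS2 too, by 2.43 ± 0.26 to 2.42 CPM (adjusted p = 2.35e-07). With CS2 9 of the 18 were lower (25.3% of all genes) and 4 higher (24.3%, close to the share in the list), and the median of the list was -0.34: RFX3, a factor of cilia and islet cells, fell by 2.32 ± 0.1 (adjusted p = 1.64e-12) and CHGB, a granin, rose by 1.37 ± 0.09 (adjusted p = 2.73e-10). With FB23-2 RFX3 (0.30 ± 0.09, adjusted p = 0.0109) and CHGB (0.29 ± 0.09, adjusted p = 0.00879) were both higher, the RFX3 call being lost in 2 of 17 alternatives.

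FLI1 and MAB21L4 lost about the same share with each compound. FLI1 had 1.01, 1.32 and 1.25 CPM in the FB23-2 libraries, 4.81, 5.8 and 5.92 CPM in the CS2 libraries and 14.2, 15.2 and 16.2 CPM in the DMSO libraries. It kept 7.86% of the DMSO level with FB23-2 and 36.2% with CS2, and its FB23-2 libraries lay close together. The log2 fold change was -3.66 ± 0.16 with FB23-2 and -1.47 ± 0.14 with CS2 (edgeR adjusted p = 4.81e-08). MAB21L4 had 1.07, 0.503 and 1.2 CPM with FB23-2, 4.51, 3.69 and 5.09 CPM with CS2 and 12.7, 10.6 and 12.8 CPM with DMSO. Its FB23-2 level was 7.68% and its CS2 level 36.8% of the DMSO level, with replicate 2 lowest within FB23-2. The log2 fold change was -3.73 ± 0.23 with FB23-2 (-3.40 without replicate 2 of FB23-2) and -1.44 ± 0.19 with CS2 (adjusted p = 3.44e-06).

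SPIB, counted among the B lineage genes, and FEV, counted among the enteroendocrine genes, are ETS genes too and are counted here again. ETS1 in this list and IGHD among the B lineage genes are also counted below as neighbours. Of 27 ETS genes besides FLI1, SPIB and FEV among them, 21 were tested, and with FB23-2 11 were lower (26.7% of all genes) and 2 higher (25.4% of all genes), with a median log2 fold change of -0.33. EHF, an epithelial ETS factor, had 2.48 CPM with FB23-2, 16.2 CPM with CS2 and 28.1 CPM with DMSO, with a log2 fold change of -3.50 ± 0.16 with FB23-2 (edgeR adjusted p = 1.9e-12) and -0.79 ± 0.14 with CS2 (adjusted p = 8.31e-05). FEV, the ETS factor of serotonin neurons, was lower with FB23-2 (-3.18 ± 0.87, adjusted p = 0.00472) at a mean of 0.357 CPM with DMSO. ELK4 (0.44 ± 0.11, adjusted p = 0.00288) and ETV3 (0.34 ± 0.09, adjusted p = 0.00456) were the 2 that rose. With CS2 8 were lower (25.3% of all genes) and 3 higher (24.3%), and the median of the list was -0.25: SPDEF, a factor of secretory epithelium, fell by 2.93 ± 0.53 (adjusted p = 1.17e-04) at under 1 CPM with DMSO, and ERF, an ETS repressor, rose by 0.80 ± 0.09 (adjusted p = 6.19e-07).

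Genes of megakaryocytes and endothelium, where FLI1 is a known regulator, were mostly too low to test or did not pass. Of 24, 12 were tested, with 3 lower and 2 higher with FB23-2 (26.7% and 25.4% of all genes) and 2 lower and 2 higher with CS2 (25.3% and 24.3% of all genes), which is at or under the share over all genes. VWF, von Willebrand factor, had 0.175 CPM with FB23-2, 0.355 CPM with CS2 and 2.06 CPM with DMSO, and was lower in both comparisons (-3.49 ± 0.45, edgeR adjusted p = 2.56e-06, and -2.54 ± 0.42, adjusted p = 4.72e-05). ITGB3, the beta-3 integrin, was lower in both as well (-0.81 ± 0.11, adjusted p = 6.03e-06, and -1.20 ± 0.12, adjusted p = 6.03e-08). LMO2 (1.10 ± 0.16, adjusted p = 1.46e-05) and RUNX1 (0.71 ± 0.19, adjusted p = 0.00431), both blood regulators, rose with FB23-2, and GATA2 rose with CS2 (1.06 ± 0.12, adjusted p = 3.53e-07). The summed level of 6 endothelial markers was 0.179 to 0.599 CPM with FB23-2, 0.201 to 0.798 CPM with CS2 and 2.08 to 2.58 CPM with DMSO. VWF made up most of the DMSO sum, and KDR had no count in any library.

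In the MAB21 family, to which MAB21L4 belongs, 6 of 10 other genes were tested. ITPRIPL2 fell with FB23-2 (-0.92 ± 0.14, edgeR adjusted p = 1.1e-05) and the other 5 did not pass, with a median of -0.01 for the list and 26.7% of all genes lower. With CS2, where 24.3% of all genes were higher, 2 rose, MIEF2, a mitochondrial fission factor (1.31 ± 0.19, adjusted p = 9.88e-06), and ITPRIPL1 (0.61 ± 0.1, adjusted p = 5.8e-05), and none fell.

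C1orf127 and GRAP2 went against the other 6 with CS2. C1orf127 had 1.58, 0.743 and 2.07 CPM in the FB23-2 libraries, 26.6, 27.6 and 27.0 CPM in the CS2 libraries and 18.6, 19.4 and 20.2 CPM in the DMSO libraries. The CS2 libraries lay above all DMSO libraries and the FB23-2 libraries far below both, at 7.54% of the DMSO level. Its log2 fold change was -3.76 ± 0.2 with FB23-2 (-3.40 without replicate 2 of FB23-2) and 0.48 ± 0.15 with CS2 (edgeR adjusted p = 0.0149). The CS2 call was lost without DMSO replicate 1 (log2 fold change 0.45, adjusted p = 0.0573), with a range over 17 alternatives from 4.02e-05 to 0.0573. GRAP2 had 2.92, 2.18 and 3.29 CPM with FB23-2, 28.6, 28.8 and 26.8 CPM with CS2 and 10.2, 9.1 and 10.5 CPM with DMSO. It kept 28.2% of the DMSO level with FB23-2 and stood at 283% with CS2. Its log2 fold change was -1.84 ± 0.14 with FB23-2 and 1.5 ± 0.13 with CS2 (adjusted p = 8.41e-09).

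Set directly against CS2, FB23-2 gave lower values of all 8 genes, which is a description because the FB23-2 libraries chose them. PERCC1 had the largest such difference, at -4.31 ± 0.22 on the log2 scale, followed by C1orf127 at -4.24 ± 0.2, IGHM at -3.40 ± 0.17 and GRAP2 at -3.33 ± 0.14. FAM30A stood at -3.22 ± 0.29, CCDC154 at -2.39 ± 0.18, MAB21L4 at -2.29 ± 0.24 and FLI1 at -2.19 ± 0.17.

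**Figure D3:**
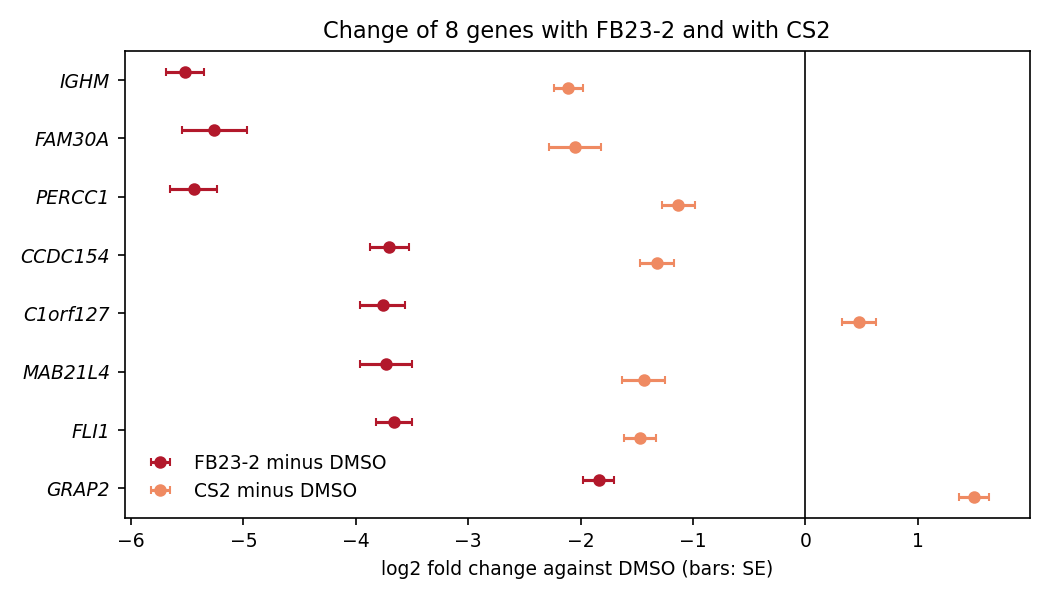
Log2 fold change of the 8 genes with FB23-2 and with CS2, each against DMSO (points, with bars of 1 SE). FB23-2 values run from -5.52 (IGHM) to -1.84 (GRAP2), and CS2 values from -2.11 (IGHM) to 1.5 (GRAP2). Both comparisons use the same DMSO libraries.

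GRAP2 works in T cell receptor signalling, and T cell markers were at 0 or low. CD3E and CD2 had no count in any library, CD3D had 1, CD3G 17, LAT 61 and CD247 302 counts over all 9. CD247, the only one of the 6 that passed the filter, averaged 0.801 CPM with FB23-2, 1.2 CPM with CS2 and 0.906 CPM with DMSO. Of 32 genes of T cell receptor signalling and adaptors, 21 were tested, with 4 lower (26.7% of all genes) and 8 higher (25.4%) with FB23-2 and 8 lower (25.3%) and 3 higher (24.3%) with CS2. The median log2 fold change of the list was 0.06 with FB23-2 and -0.17 with CS2. LCK, a kinase of T cells, was lower with FB23-2 (-2.44 ± 0.26, edgeR adjusted p = 2.01e-07) and did not pass with CS2 (0.20 ± 0.22, adjusted p = 0.472). SYK, a kinase of B cell receptor signalling, fell to 52.9 CPM with FB23-2, against 141 CPM with DMSO (-1.41 ± 0.09, adjusted p = 1.66e-10), and the adaptor GAB3 fell by 1.27 ± 0.1 (adjusted p = 5.21e-09). CBLB, a ubiquitin ligase that restrains such signalling, rose with FB23-2 (0.64 ± 0.11, adjusted p = 4.59e-05) and fell with CS2 (-0.53 ± 0.11, adjusted p = 4.39e-04). SKAP1 (1.02 ± 0.33, adjusted p = 0.0133), at 0.625 CPM with DMSO, and PLCG2 (0.45 ± 0.16, adjusted p = 0.026) rose with FB23-2 as well. The call of SKAP1 was lost in 1 of 16 alternatives and that of PLCG2 in 5 of 17. SKAP2 was lower with FB23-2 (-0.34 ± 0.09, adjusted p = 0.00513) and with CS2 (-1.20 ± 0.1, adjusted p = 5.26e-09). The adaptor LAT2 rose with CS2 (1.30 ± 0.2, adjusted p = 2.29e-05), as did the phospholipase PLCG1 (0.52 ± 0.08, adjusted p = 3.28e-05).

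For C1orf127 the list was that of the left-right axis, of which 9 of 16 genes were tested. With FB23-2 3 were lower and 0 higher (median log2 fold change -0.19), where 26.7% of all genes were lower and 25.4% higher. With CS2 4 were lower and 1 higher (median -0.36), where 25.3% of all genes were lower and 24.3% higher. FOXJ1, the master factor of motile cilia, had 0.141 CPM with FB23-2, 5.43 CPM with CS2 and 0.941 CPM with DMSO, and so was lower with FB23-2 (-2.76 ± 0.39, edgeR adjusted p = 7.26e-06) and higher with CS2 (2.5 ± 0.25, adjusted p = 1.2e-07), the 2 directions that C1orf127 and GRAP2 also took. ACVR2B, an activin receptor, was lower in both comparisons (-0.40 ± 0.08, adjusted p = 5.16e-04, and -0.64 ± 0.08, adjusted p = 3.64e-06).

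Position was not used to choose the genes beyond the 2 pairs, and 34 other tested genes lie within 100 kb of one of the 8. With FB23-2 16 of the 34 were lower and 3 higher, where 26.7% of all genes were lower and 25.4% higher. With CS2 14 were lower and 9 higher, where 25.3% of all genes were lower and 24.3% higher. Around the heavy chain pair 5 of 6 were lower in each comparison, and outside that locus 11 of 28 were lower and 3 higher with FB23-2 and 9 lower and 9 higher with CS2. Those lower outside that locus include, in both comparisons, AL032819.2, whose reads may be those of CCDC154. Reads of a single long transcript could also be counted under several heavy chain segments, so these neighbours may not all be separate. The 5 neighbours called lower at the heavy chain locus were IGHD, IGHG3 (80.3 kb from IGHM), IGHJ3, IGHJ2P and the lincRNA AC246787.2. AC246787.2 had no read in the FB23-2 libraries and 0.481 ± 0.097 CPM with DMSO. IGHD had a log2 fold change of -3.89 ± 0.23 with FB23-2 (edgeR adjusted p = 6.88e-11) and -1.81 ± 0.2 with CS2 (adjusted p = 2.94e-07). AC246787.1, a pseudogene 45.9 kb beyond FAM30A, did not pass (0.20 ± 0.3 with FB23-2, adjusted p = 0.599).

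Next to MAB21L4, AGXT, a peroxisomal aminotransferase of liver at a distance of 5.5 kb on the opposite strand, followed it. AGXT had 0.743 ± 0.16 CPM with FB23-2, 2.28 ± 0.16 CPM with CS2 and 7.03 ± 0.77 CPM with DMSO, or 10.6% and 32.4% of the DMSO level. The log2 fold change was -3.25 ± 0.21 with FB23-2 (edgeR adjusted p = 1.92e-10) and -1.62 ± 0.19 with CS2 (adjusted p = 5.41e-07). CROCC2, 9.4 kb away on the other side, did not pass in either comparison (-0.50 ± 0.31, adjusted p = 0.183, and -0.47 ± 0.31, adjusted p = 0.222). KIF1A, a neuronal kinesin 65.0 kb away, fell less, to 990 ± 68 CPM with FB23-2 and 1250 ± 66 CPM with CS2, against 1620 ± 55 CPM with DMSO.

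Beside the other genes the changes were mixed. CLCN7, a lysosomal chloride transporter that starts 31.0 kb upstream of the CCDC154 start and ends 0.4 kb from that gene, had 60.2 ± 11 CPM with FB23-2, 94.5 ± 20 CPM with CS2 and 60.5 ± 4.9 CPM with DMSO (-0.01 ± 0.15, edgeR adjusted p = 0.965, and 0.64 ± 0.15, adjusted p = 0.00229). UQCC4, 10.2 kb from PERCC1, did not pass in either comparison, and UNKL, 16.3 kb from it, rose in both (0.49 ± 0.13, adjusted p = 0.00363, and 0.55 ± 0.13, adjusted p = 0.00152). ETS1, the ETS factor 99.0 kb from FLI1, had 268 ± 16 CPM with FB23-2, 181 ± 14 CPM with CS2 and 259 ± 5.0 CPM with DMSO, and was lower with CS2 (-0.52 ± 0.08, adjusted p = 1.07e-05) but not called with FB23-2 (0.05 ± 0.07, adjusted p = 0.585). Of 5 tested neighbours of C1orf127, 3 were lower and 0 higher with FB23-2 (26.7% and 25.4% of all genes). With CS2 2 were lower and 2 higher (25.3% and 24.3%). TARDBP, the RNA-binding protein TDP-43 gene 30.3 kb from C1orf127, fell by 0.38 ± 0.07 with FB23-2 (adjusted p = 1.62e-04). It rose by 0.22 ± 0.07 with CS2 (adjusted p = 0.0135), a call lost in 2 of 17 alternatives. SRM, 72.5 kb from C1orf127, fell in both (-1.14 ± 0.08, adjusted p = 1.49e-09, and -0.67 ± 0.08, adjusted p = 1.6e-06). FAM83F, 21.2 kb from GRAP2, fell to 123 ± 18 CPM with FB23-2, against 233 or more CPM in the other groups (-0.95 ± 0.09, adjusted p = 2.92e-08), and did not pass with CS2 (-0.03 ± 0.09, adjusted p = 0.831). TMA7B, a gene inside the GRAP2 span, was lower with FB23-2 (-2.37 ± 0.5, adjusted p = 5.17e-04) at a mean of 0.541 CPM with DMSO.

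**Figure D4:**
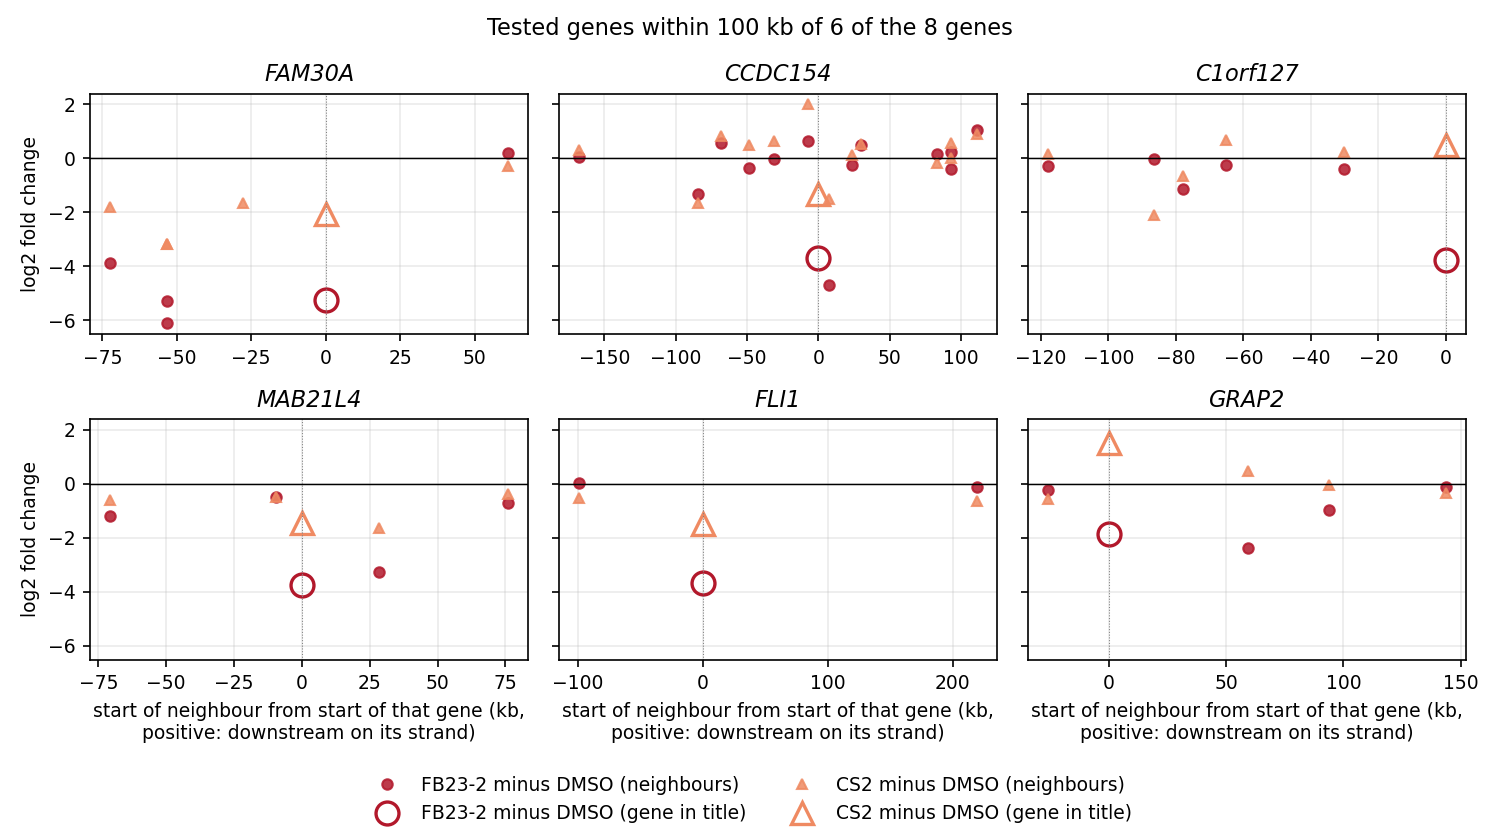
Log2 fold change of tested genes within 100 kb (filled) and of the gene in each title (open) against the distance between their starts in kb, for FB23-2 (circles) and CS2 (triangles) against DMSO. The FB23-2 value of AC246787.2, which had no read with FB23-2, is not drawn, and IGHM, PERCC1 and the IGHM neighbour IGHG3 are not drawn. Low FB23-2 values beside the title gene are seen for FAM30A at IGHD (-3.89), IGHJ3 (-5.27) and IGHJ2P (-6.11), for CCDC154 at the overlapping AL032819.2 (-4.70), for MAB21L4 at AGXT (-3.25) and for GRAP2 at TMA7B (-2.37).

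Among the genes most like the mean pattern of the 8 over the 9 libraries, by Pearson's r of log2 CPM, were MUC5AC (0.998), TAGLN3, USP46, SPOCK2, MATK and ADAMTSL2 (0.995 each) and TRPM8 (0.994). The libraries fall into 3 groups and share their scaling, so r mostly reflects the group levels, and it carries no p. Nor does r take account of the size of a change. TAGLN3 fell only from 174 CPM with DMSO to 86.3 CPM with FB23-2, and USP46 from 24.5 to 10.2 CPM. MUC5AC, a gel-forming airway and gastric mucin, had 0.594 ± 0.14 CPM with FB23-2, 10.7 ± 1.9 CPM with CS2 and 23.5 ± 3.6 CPM with DMSO. TRPM8, the cold-sensing channel, had 6.99 ± 0.82, 28.8 ± 1.8 and 48.0 ± 2.3 CPM in the same order of groups. Of the 8 themselves, r with their own mean was from 0.949 to 0.994 for 7 genes and 0.783 for GRAP2, whose pattern was the least like the rest.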

How the data were processed

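Messenger RNA of NCI-H69 was sequenced after FB23-2, CS2 or DMSO, with 3 libraries each that the series calls biological replicates. Per the labels' protocols, TRIzol was used for the RNA and a Hieff NGS Ultima Dual-mode kit for the libraries. What the authors deposited are raw read counts by Ensembl gene ID; hg38 is the build per the submitters' processing notes. The sources used here name no aligner, counter or strand setting. Columns named FB23 were taken as FB23-2, the single H69 treatment with that start.

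The analysis used edgeR 4.0.16 under R 4.3.3: filterByExpr (minimum count 10, total 15), TMM scaling, and a robust quasi-likelihood fit over all 9 libraries without covariates. A call means an adjusted p below 0.05 (Benjamini-Hochberg, all 19781 genes). CPM are TMM-scaled, and SE is the log2 fold change divided by the square root of F. Of 62754 IDs, 42343 had a symbol and 58261 a position in GENCODE 29. No 2 libraries within a group matched within counting noise (lowest chi-square 3.86 per degree of freedom). The p-values set each group difference against the spread between replicate libraries of a single cell line.

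The 8 genes, the 7 lists and the rule for named genes were chosen with earlier results of these data known. The rule takes the 8 genes, tested neighbours within 100 kb, the 8 most similar genes, the 8 largest other losses at 1 CPM or more with DMSO, and up to 3 (FB23-2) or 2 (CS2) called genes per list and direction. Only part of them is printed, and some are not reported here. Promoters are from RefSeq, and motifs were chosen after the gene values were seen. The alternatives tried were DESeq2 1.42.0, RLE factors or library size alone for scaling, a filter at a mean of 1 CPM or none, a replicate block, fits of 2 groups, no mitochondrial genes, each library left out and a 500 kb window.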

Additional observations from a re-analysis of the deposited data

How the results depend on the processing

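The log2 fold changes of the 8 genes kept their direction in all 17 alternatives of each comparison, and none moved by as much as 1.5 times. Their CS2 calls held in 135 of 136 fits, the exception being C1orf127 without DMSO replicate 1, given above. Without replicate 2 of FB23-2 the losses ran from -5.40 (IGHM) to -1.68 (GRAP2). Of 1131 refits of neighbours 25 lost a call and 8 gained one, and of 1444 refits of list genes 42 lost one and 9 gained one; the CS2 call of AC246787.2 was lost in 5 of 16. The heavy chain V segments were not refitted. Without a filter on low counts, 85 neighbours were tested, of which 26 were lower and 5 higher with FB23-2, beside 14% and 12.8% of all 39027 genes then tested. Within 500 kb, 125 neighbours were tested, of which 46 were lower and 13 higher with FB23-2 and 38 lower and 30 higher with CS2, beside 26.7% and 25.4% of all genes with FB23-2 and 25.3% and 24.3% with CS2. Leaving out 1 library gave 15 to 17 lower and 2 to 4 higher neighbours with FB23-2 and 11 to 14 lower and 7 to 9 higher with CS2. For the lists it gave 34 to 40 lower and 14 to 18 higher with FB23-2 and 31 to 41 lower and 13 to 17 higher with CS2. Over all genes it gave 8795 to 10491 called genes with FB23-2, 8345 to 11024 with CS2 and 10965 to 11848 between the compounds, against 10290, 9829 and 11799 with all libraries. Deviations from the group means correlated at 0.049 to 0.167 between FB23-2 and CS2 libraries of equal number, against -0.138 to 0.02 for unequal numbers. Equal numbers gave -0.016 to 0.021 between FB23-2 and DMSO and -0.03 to -0.013 between CS2 and DMSO. Whether replicate numbers pair the FB23-2 and CS2 libraries was not tested, and the main fit treats the libraries as unpaired. With the replicate block 10698, 10271 and 12136 genes were called. No call of the 8 genes changed under it. With 9 to 113 reads per FB23-2 library, counting error is largest for the FB23-2 levels of the 8 genes.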

Other observations

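Other genes with large losses with FB23-2 at 1 CPM or more with DMSO, given as values, were C11orf21, with no read in the FB23-2 libraries, 0.388 ± 0.086 CPM with CS2 and 1.34 ± 0.31 CPM with DMSO (SD, n = 3 each), and MS4A15, with 0.032 ± 0.055, 0.778 ± 0.22 and 1.54 ± 0.3 CPM in the same groups. FOXI1, a factor of airway ionocytes, had 0.0976 ± 0.12 CPM with FB23-2, 1.79 ± 0.35 CPM with CS2 and 2.89 ± 0.73 CPM with DMSO. HK3, a hexokinase of blood cells, had 0.0743 ± 0.09 CPM with FB23-2, 0.273 ± 0.25 CPM with CS2 and 1.8 ± 0.18 CPM with DMSO. PAX4, described above, lost as much with FB23-2 while its CS2 and DMSO levels were close, at 4.38 ± 0.11 and 3.75 ± 0.3 CPM. All of these had under 0.2 CPM with FB23-2, so the size of their loss rests on few reads.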
